A study of Homo sapiens with 12 samples.

Results

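The 34 genes described here encode the machinery that brings proteins into the endoplasmic reticulum (ER) and attaches N-glycans to them. They were taken as a list of named genes of 6 complexes, by function and with no cut on measured values, although the list was drawn up with earlier results of these data known. All 34 symbols had an Ensembl identifier among the 54127 in the count files, and all 34 were among the 14501 genes that passed the filter on low counts.

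Proteins destined for secretion or for membranes carry a signal sequence that is bound, as it leaves the ribosome, by the signal recognition particle (SRP), which docks at the SRP receptor on the ER. The chain then passes through the Sec61 channel with the help of the translocon-associated protein complex (TRAP), signal peptidase removes the signal sequence, and oligosaccharyltransferase (OST) transfers a preassembled glycan to asparagines. Prostate epithelium secretes large amounts of glycoprotein and depends on this route.

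C4-2 is a castration-resistant subline of the human prostate cancer line LNCaP. The cells were grown in RPMI medium with 10% serum and reverse-transfected with 50 nM of an siRNA pool, and RNA of flow-sorted cells was sequenced in 12 samples. The study's methods for sequencing mention no sorting. In 6 samples the pool targeted choline kinase alpha (siCHKA), the first enzyme of phosphatidylcholine synthesis, and in 6 it was nontargeting (siNT). The labels name neither the time after transfection nor separate cultures, so the p-values measure the spread between these samples, which may be technical. The study's text speaks of triplicates in some places and of a larger number of replicates in others, so the 6 samples of a group may include repeats of the same culture. Taking them as 6 separate samples would then make the p-values too small. With a pool and no rescue, loss of CHKA and other effects of the siRNAs cannot be told apart.

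CHKA itself lay between 1.91 and 4.67 CPM (counts relative to the TMM-normalized library size) in the siCHKA samples and between 36.7 and 43.3 CPM in the siNT samples, so the labels held in all 12. Reads on genes numbered 10685184 to 24246055 per sample. Within siCHKA, replicates 1, 3 and 5 stood apart from replicates 2, 4 and 6: pairs within these sets differed by a chi-square per degree of freedom of 2.39 to 9.5, and pairs across them by 12.5 to 24.9. The siNT pairs differed by 2.51 to 30.9. The summed level of 10 prostate luminal markers was 4654 to 5814 CPM in siCHKA and 5673 to 7174 CPM in siNT. Summed levels of markers of other cell types were far lower, at 24.2 to 30.6 against 11.7 to 19.1 CPM for 5 fibroblast markers, 1.57 to 2.1 against 0.981 to 1.46 CPM for 3 basal markers, 1.13 to 1.86 against 2.05 to 3.65 CPM for 2 endothelial markers and 3.93 to 5.97 against 2.65 to 3.94 CPM for 4 leukocyte markers. Each of these sums came almost wholly from a single gene: COL1A1 (26.8 ± 2.1 against 15 ± 2.33 CPM, SD, n = 6), KRT14, VWF and CD68. The leukocyte markers CD3E and MS4A1 were at 0 in every sample. The part of these shifts in the results below was not tested. In bulk RNA, fewer cells of a kind and less RNA per cell cannot be told apart.

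CHKA knockdown was accompanied by lower transcript levels of genes in every one of the 6 complexes. The OST subunits RPN1 and RPN2 and the channel subunit SEC61A1 had the largest falls. By edgeR's quasi-likelihood test (Benjamini-Hochberg adjusted p below 0.05 over all tested genes), 24 of the 34 genes fell and 2 rose, while 30.1% of all 14501 tested genes were lower and 32.1% higher. The median log2 fold change of the 34 was -0.32, against 0.03 for all tested genes. In 21 of the 34 every siCHKA sample lay below every siNT sample, as in 21.5% of all tested genes, and in 1, SRP54, every siCHKA sample lay above, as in 19.1%. A fall of at least 1.5-fold was called in 10 (11.3% of all tested genes) and a rise of that size in none (13.4% of all tested genes). Under upper-quartile normalization, which moved the median of all genes by 0.15, 18 of the 34 were lower and 5 higher, and 3052 genes (21%) were lower and 6609 (45.6%) higher in all. SEC61B, SEC62, TRAM1, SRP72, DDOST and TUSC3 were then not called, and SSR4, DAD1 and KRTCAP2 were called higher. The median of the 34 relative to that of all genes was -0.36 under both scalings. A change of scaling moves all genes by nearly the same amount, so this difference could hardly have changed and tests nothing.

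**Figure D1:**
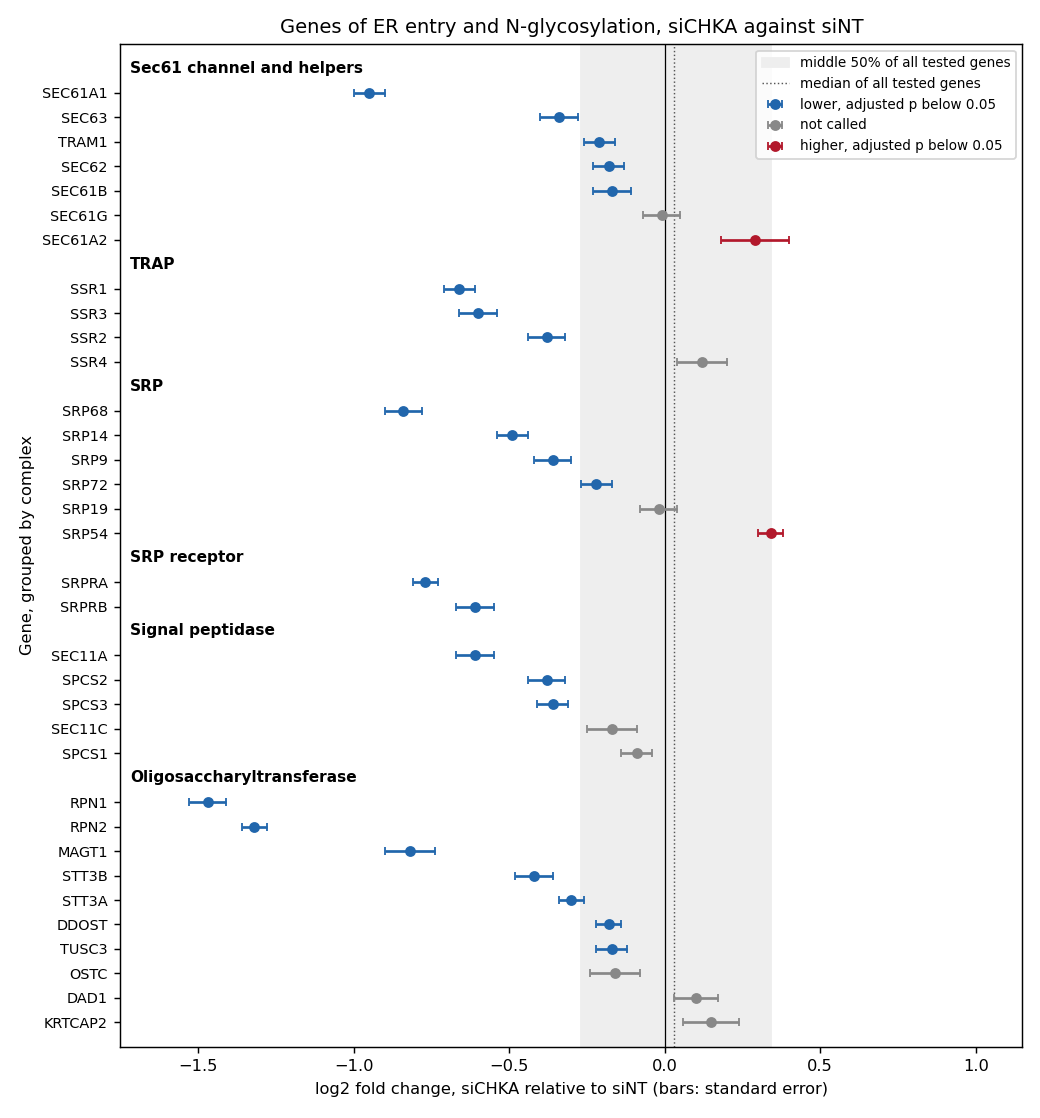
Log2 fold change of siCHKA relative to siNT (horizontal axis, bars are standard errors) for each of the 34 genes (vertical axis), grouped by complex and coloured by call. The shaded band is the middle 50% of all tested genes, from -0.27 to 0.34, and RPN1 at -1.47 and RPN2 at -1.32 lie farthest to its left.

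OST carried the largest falls. RPN1 and RPN2 encode ribophorins, structural subunits common to both forms of the enzyme. RPN1 (chr3:128619969-128681075, minus strand, GRCh38) ranged from 234 to 266 CPM in siCHKA (median 251) and from 627 to 742 CPM in siNT (median 706), a log2 fold change of -1.47 (SE 0.06, adjusted p = 7.40e-13). The lowest siNT sample was above the highest siCHKA sample by more than the whole range of either group. RPN2 (chr20:37178410-37241619, plus strand) ranged from 252 to 273 CPM in siCHKA (median 262) and from 619.8 to 676 CPM in siNT (median 657), a log2 fold change of -1.32 (SE 0.04, adjusted p = 2.12e-13). Only 36.1% and 40.1% of the siNT mean was left for RPN1 and RPN2.

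The catalytic subunits of OST fell by less. STT3A, the subunit of the form that works beside the channel, ranged from 283 to 313 CPM in siCHKA (median 299) and from 363 to 374 CPM in siNT (median 369), with a log2 fold change of -0.30 (SE 0.04, adjusted p = 1.23e-05). STT3B, the subunit of the form that also glycosylates sites missed during translation, ranged from 225 to 266 CPM in siCHKA (median 235) and from 295 to 359.8 CPM in siNT (median 318), with a log2 fold change of -0.42 (SE 0.06, adjusted p = 9.90e-06). Neither had overlapping groups.

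MAGT1 and TUSC3 are alternative oxidoreductase subunits of the STT3B form. MAGT1 ranged from 198 to 248 CPM in siCHKA (median 210.3) and from 335 to 447 CPM in siNT (median 385), a log2 fold change of -0.82 (SE 0.08, adjusted p = 2.40e-07). In siNT, replicates 1 to 3 were at 410.2 to 447 CPM and replicates 4 to 6 at 335 to 359 CPM, so the spread was wide but the groups stayed apart. TUSC3 was lower by a log2 fold change of -0.17 (SE 0.05, adjusted p = 0.00655), with ranges of 60.5 to 69.5 CPM in siCHKA (median 66.7) and 68.9 to 80.4 CPM in siNT (median 74.2), which overlapped slightly.

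Of the remaining OST subunits, DDOST, which holds the complex together with the ribophorins, fell by 0.18 on the log2 scale, with 185 to 192 CPM in siCHKA and 205 to 223 CPM in siNT. The small subunits were not called. DAD1, a core subunit named for its defence against cell death, ranged from 123 to 136 CPM in siCHKA (median 129) and from 104 to 137 CPM in siNT (median 123), with an adjusted p of 0.216. All its siCHKA values lay within the siNT range. OSTC and KRTCAP2, subunits that belong to the STT3A form, had log2 fold changes of -0.16 and 0.15 (adjusted p = 0.0982 and 0.153), and OSTC was called lower without siCHKA replicate 4 (-0.20, adjusted p = 0.042) or siNT replicate 5 (-0.22, adjusted p = 0.0205). OST4 and TMEM258, other small OST subunits that were not among the 34, had log2 fold changes of 0.28 (adjusted p = 0.0106) and -0.02 (adjusted p = 0.891). Hence 7 of 10 OST genes were lower and none higher (30.1% and 32.1% of all tested genes), and the median log2 fold change was -0.24. Under upper-quartile normalization 5 were lower and 2 higher (21% and 45.6% of all tested genes).

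**Figure D2:**
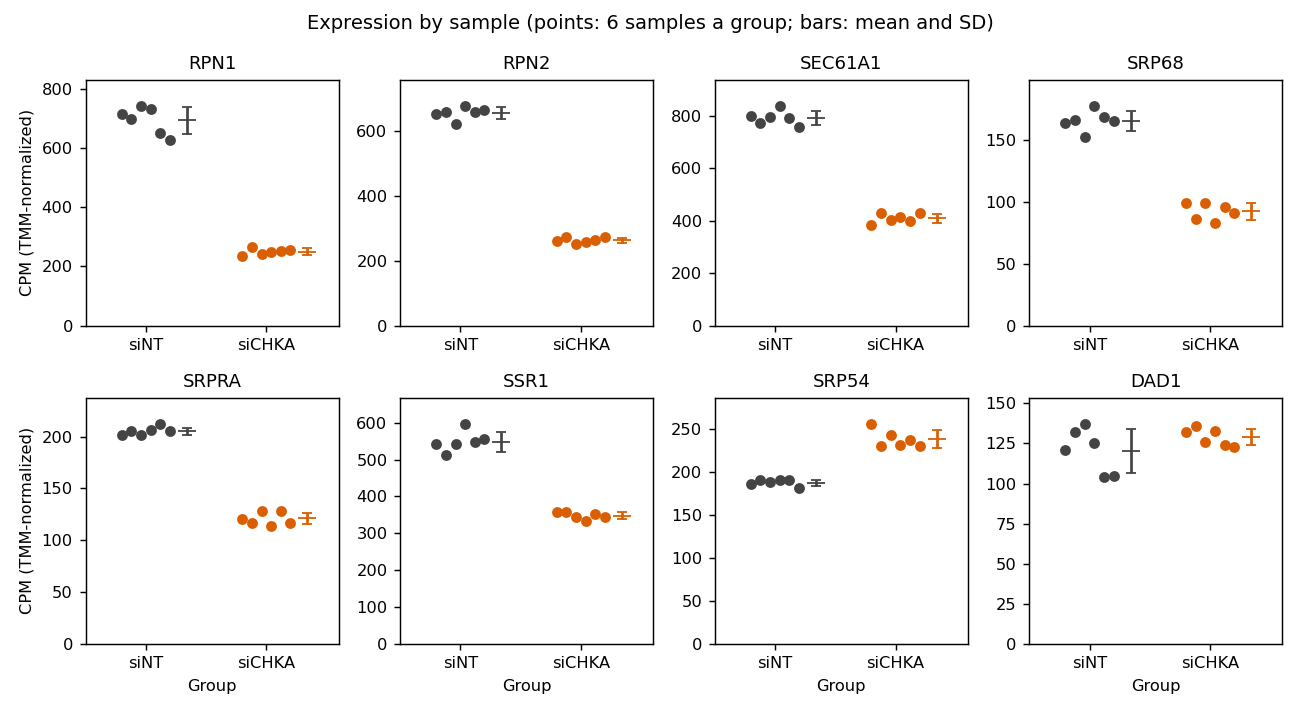
CPM after TMM normalization (vertical axes, starting at 0) in each of the 6 siNT and 6 siCHKA samples for 8 genes, with the mean and SD of each group beside the points. RPN1, RPN2, SEC61A1, SRP68, SRPRA and SSR1 are lower in all siCHKA samples, SRP54 is higher in all, and the DAD1 groups overlap.

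On a scale of CPM per kilobase of transcript, RPN1 (304 ± 20.3, SD, n = 6) and RPN2 (294 ± 8.52) had the highest levels of the 34 genes in siNT and did not differ from each other beyond their spread. In siCHKA they stood at 109.6 ± 4.87 and 118 ± 3.74, ranks 12 and 10. DDOST on the same scale was at 109.7 ± 4.21 in siNT and 97.2 ± 1.6 in siCHKA. The highest levels in siCHKA were those of SSR4 (242 ± 18.6), SEC61G (231 ± 21.6) and SEC61B (213 ± 14.9), neighbours within their spread. The lowest level in both groups was that of SEC61A2, at 3.12 in siNT and 3.83 in siCHKA.

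The Sec61 channel is built from an alpha subunit that forms the pore and from the small beta and gamma subunits. SEC61A1 (chr3:128051641-128071705, plus strand), the main alpha subunit, ranged from 382 to 429 CPM in siCHKA (median 409) and from 757 to 837 CPM in siNT (median 794), a log2 fold change of -0.95 (SE 0.05, adjusted p = 2.56e-11). The groups were separated by far more than their spread. Its paralogue SEC61A2 rose by 0.29 (SE 0.11, adjusted p = 0.0223), with 8.7 to 10.6 CPM in siCHKA (median 9.37) and 6.28 to 9.48 CPM in siNT (median 7.85), and the groups overlapped. The rise was not called against siNT replicates 1 to 3 alone (0.10, adjusted p = 0.433), nor without siNT replicate 4 (0.23, adjusted p = 0.063), 5 (0.26, adjusted p = 0.055) or 6 (0.25, adjusted p = 0.0523).

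The partner subunits moved little. SEC61G, the gamma subunit, ranged from 84.7 to 113 CPM in siCHKA (median 98.4) and from 90.7 to 108 CPM in siNT (median 99.9), a log2 fold change of -0.01 (adjusted p = 0.864), so the groups lay on top of each other. SEC61B, the beta subunit, was lower by a log2 fold change of -0.17 (adjusted p = 0.0213), a call lost under upper-quartile normalization (-0.03, adjusted p = 0.732). SEC63, a J-domain protein that recruits the chaperone BiP to the channel, ranged from 174 to 204 CPM in siCHKA (median 184) and from 211 to 255 CPM in siNT (median 239), with a log2 fold change of -0.34 (SE 0.06, adjusted p = 9.93e-05). Its groups did not overlap. SEC62, its partner in post-translational import, and TRAM1, a channel-associated membrane protein, had log2 fold changes of -0.18 and -0.21 (adjusted p = 0.00444 and 0.000888). In this group 5 of 7 genes were lower and 1 higher (30.1% and 32.1% of all tested genes). Under upper-quartile normalization 2 were lower and 1 higher (21% and 45.6% of all tested genes).

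In TRAP, 3 of the 4 subunits fell (30.1% of all tested genes were lower) and the median log2 fold change was -0.49. SSR1, the alpha subunit, ranged from 333 to 358 CPM in siCHKA (median 348) and from 512 to 596 CPM in siNT (median 546), a log2 fold change of -0.66 (SE 0.05, adjusted p = 2.63e-09). SSR3, the gamma subunit, ranged from 484 to 523 CPM in siCHKA (median 504) and from 686 to 855 CPM in siNT (median 761), a log2 fold change of -0.60 (SE 0.06, adjusted p = 7.46e-08). Both were lower in every siCHKA sample than in any siNT sample, as was the beta subunit SSR2 (-0.38). SSR4, the delta subunit, was not called: it ranged from 133 to 161 CPM in siCHKA (median 145) and from 115 to 164 CPM in siNT (median 132), with a log2 fold change of 0.12 (adjusted p = 0.197). Its siNT replicates 1 to 3 (142 to 164 CPM) were all above replicates 4 to 6 (115 to 123 CPM), and without siNT replicate 3 the gene was called higher (0.17, adjusted p = 0.0417).

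SRP was split between its subunits. SRP68, which with SRP72 binds the RNA of the particle, ranged from 82.8 to 99.1 CPM in siCHKA (median 93.3) and from 152 to 177 CPM in siNT (median 165), a log2 fold change of -0.84 (SE 0.06, adjusted p = 7.84e-10). SRP72 was lower by much less, at -0.22 (SE 0.05, adjusted p = 0.00181). SRP9 and SRP14, which together slow elongation, fell by 0.36 and 0.49 on the log2 scale. For SRP14 this was 180.0 to 206 CPM in siCHKA (median 193) against 251 to 291 CPM in siNT (median 278), with an adjusted p of 3.57e-07 and no overlap.

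The subunit that binds signal sequences moved the other way. SRP54 (chr14:34981957-35029686, plus strand), the GTPase of the particle, ranged from 230.0 to 255 CPM in siCHKA (median 234) and from 181 to 190.2 CPM in siNT (median 189). It rose by 0.34 (SE 0.04, adjusted p = 2.78e-06), was higher in every siCHKA sample than in any siNT sample, and stayed between 0.29 and 0.49 in all 25 alternative fits. SRP19, needed for SRP54 to join the particle, ranged from 26.6 to 34.3 CPM in siCHKA (median 29.9) and from 29 to 32.7 CPM in siNT (median 29.7), a log2 fold change of -0.02 (adjusted p = 0.806). Its siCHKA values surrounded those of siNT.

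Both subunits of the SRP receptor fell (30.1% of all tested genes were lower). SRPRA, the GTPase that meets SRP54, ranged from 114 to 128 CPM in siCHKA (median 119) and from 202 to 212 CPM in siNT (median 205), a log2 fold change of -0.77 (SE 0.04, adjusted p = 1.37e-10). SRPRB, its membrane anchor, ranged from 146 to 167 CPM in siCHKA (median 154) and from 208 to 255 CPM in siNT (median 248), a log2 fold change of -0.61 (SE 0.06, adjusted p = 2.36e-07). The groups were apart for both genes, and SRPRA had a tight siNT group.

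In signal peptidase 3 of 5 genes fell (30.1% of all tested genes were lower). SEC11A, a catalytic subunit, ranged from 96.1 to 117 CPM in siCHKA (median 107) and from 147 to 174 CPM in siNT (median 165), a log2 fold change of -0.61 (SE 0.06, adjusted p = 1.64e-07). SEC11C, the alternative catalytic subunit, ranged from 61.1 to 80.0 CPM in siCHKA (median 72.3) and from 69.4 to 96.7 CPM in siNT (median 77.7), a log2 fold change of -0.17 (adjusted p = 0.0772). The SEC11A groups were apart and the SEC11C groups overlapped. SPCS3, the luminal subunit required for cleavage, ranged from 163 to 181 CPM in siCHKA (median 172) and from 204 to 235 CPM in siNT (median 222), a log2 fold change of -0.36 (SE 0.05, adjusted p = 5.36e-06). The accessory subunit SPCS2 fell by 0.38 on the log2 scale. SPCS1, the other accessory subunit, ranged from 166 to 175 CPM in siCHKA (median 169) and from 166 to 195 CPM in siNT (median 182), a log2 fold change of -0.09 (adjusted p = 0.0957), so the siCHKA values lay at the low end of the siNT range. Without siNT replicate 5, SPCS1 (-0.12, adjusted p = 0.0332) and SEC11C (-0.21, adjusted p = 0.031) were called lower, as was SEC11C without siCHKA replicate 2 (-0.20, adjusted p = 0.0373).

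Paralogues of a complex were compared as within-sample log2 ratios of counts, which do not depend on the scaling between samples. All 4 pairs shifted by exact two-sided permutation tests of 6 against 6 samples, for which 0.00216 is the smallest possible p. The SEC61A1 to SEC61A2 ratio was 5.41 ± 0.13 (SD, n = 6) in siCHKA and 6.66 ± 0.25 in siNT (exact permutation p = 0.00216, adjusted over the 4 pairs 0.00289). Per transcript length this was 29.6 copies of SEC61A1 for each of SEC61A2 in siCHKA and 70.8 in siNT. SEC61A2 rested on 68 to 234 counts per sample.

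The other pairs shifted by less. The MAGT1 to TUSC3 ratio was 1.71 ± 0.15 in siCHKA and 2.36 ± 0.22 in siNT (n = 6, exact permutation p = 0.00216, adjusted 0.00289), or 2.69 and 4.22 per transcript length. The SEC11A to SEC11C ratio was 0.59 ± 0.06 in siCHKA and 1.04 ± 0.11 in siNT (n = 6, exact permutation p = 0.00216, adjusted 0.00289), or 1.1 and 1.51 per transcript length. These levels may be too low for SEC11A, since reads that align to several places were not counted. Of the 40-base windows in all its annotated exons 25.4% recur elsewhere in the genome, against 0.936% for SEC11C. These exons extend beyond the transcript used for the length, so the share is not that of reads lost. In these 3 pairs the groups did not overlap. The STT3A to STT3B ratio was 0.31 ± 0.05 in siCHKA and 0.20 ± 0.08 in siNT (n = 6, exact permutation p = 0.0152, adjusted 0.0152), with overlapping groups, and this difference was no longer called in 5 of the alternatives.

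**Figure D3:**
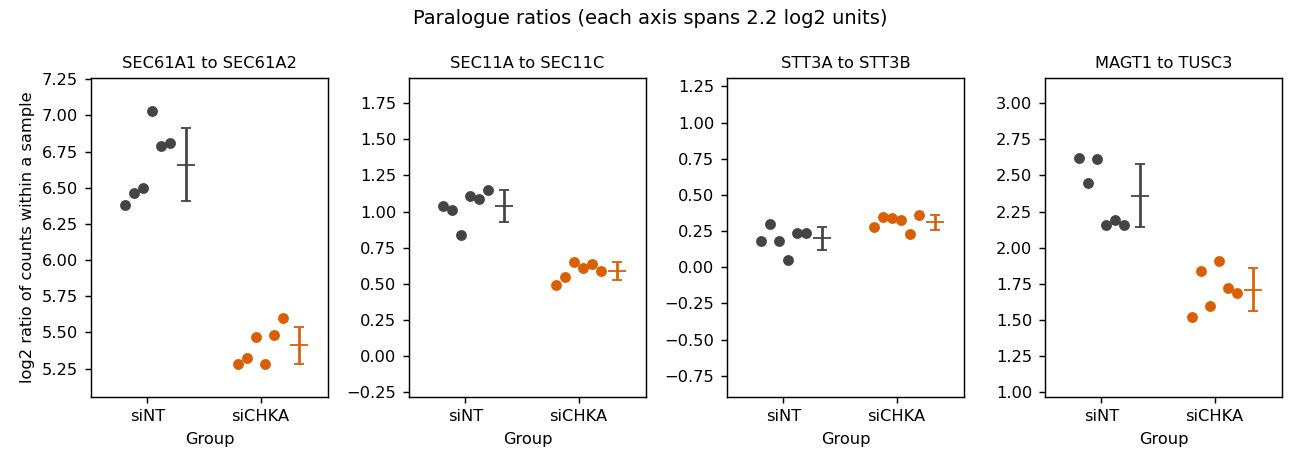
Within-sample log2 ratio of counts (vertical axes, each spanning 2.2 log2 units) for the 4 paralogue pairs in the 6 siNT and 6 siCHKA samples, with mean and SD beside the points. The ratio of SEC61A1 to SEC61A2 lies between 5.28 and 5.60 in siCHKA and between 6.38 and 7.03 in siNT, and only the STT3A to STT3B groups overlap.

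Averaged over the members of a complex, log2 CPM relative to the siNT mean lay between -0.72 and -0.66 in the siCHKA samples for the SRP receptor, between -0.52 and -0.39 for OST and between -0.46 and -0.30 for TRAP. It lay between -0.41 and -0.25 for signal peptidase, between -0.31 and -0.22 for SRP and between -0.28 and -0.17 for Sec61 and its helpers. The siNT samples stayed between -0.13 and 0.11 in all 6 complexes. These averages describe the samples and were not tested.

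**Figure D4:**
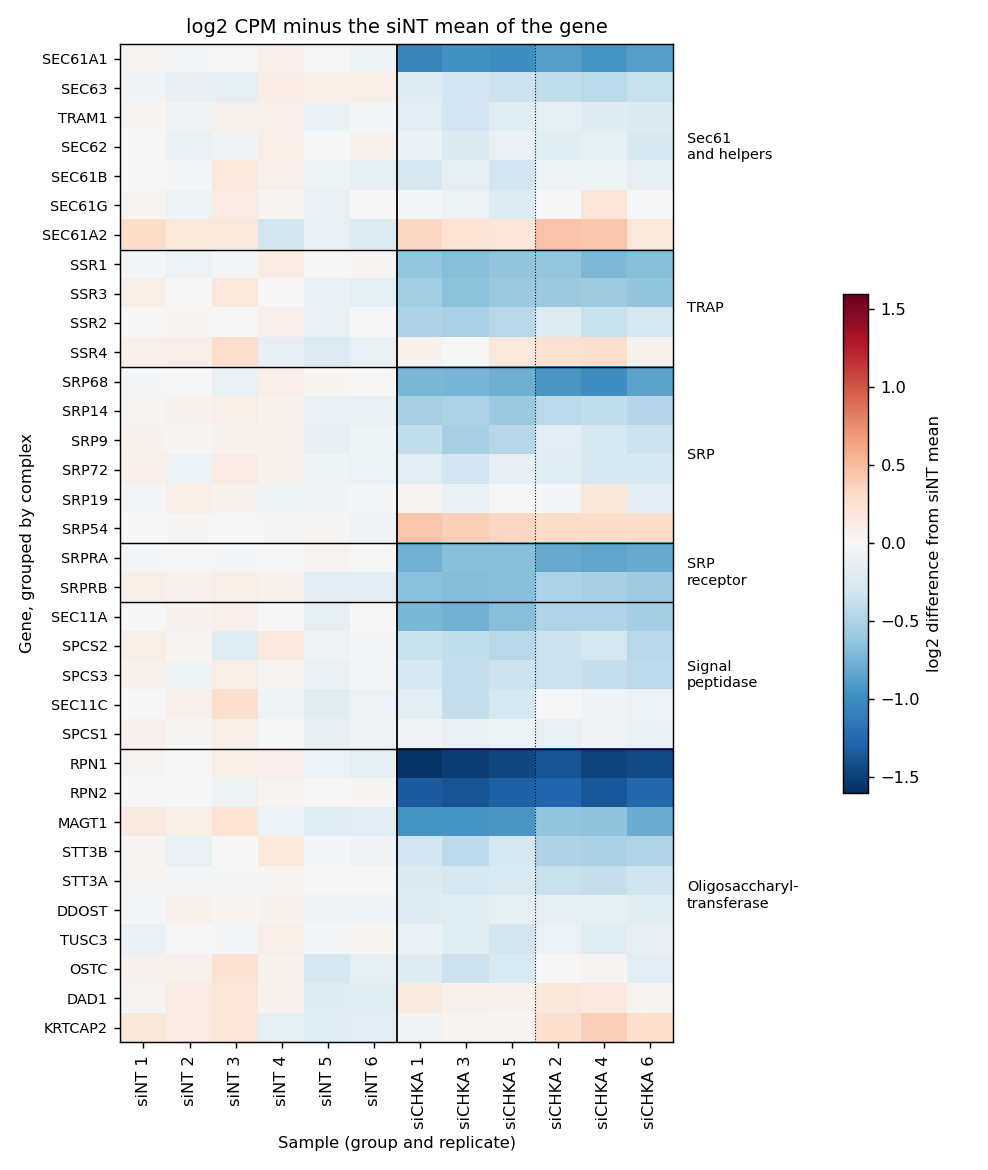
Log2 CPM minus the siNT mean of each gene (colour), with the 34 genes in rows by complex and the 12 samples in columns, siCHKA replicates 1, 3 and 5 placed before 2, 4 and 6. Each complex holds genes that are blue in all 6 siCHKA columns, and SRP54 is red in all 6.

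The sets of siCHKA replicates that stood apart differed for part of the list. Replicates 1, 3 and 5 lay below replicates 2, 4 and 6 in 12 genes (22.9% of all tested genes), above them in 6 (24.6% of all tested genes), and overlapped with them in 16. Tested against all siNT samples, 26 genes were lower and 1 higher with replicates 1, 3 and 5 (29.3% and 30% of all genes tested in that fit). With replicates 2, 4 and 6, 23 were lower and 3 higher (30.7% and 31.5% of all genes), the higher ones including KRTCAP2 (0.28, adjusted p = 0.0123), and 23 were lower in both. MAGT1 had log2 fold changes of -0.95 and -0.70 in these sets, SEC11A of -0.73 and -0.51, and SRP68 of -0.75 and -0.94. The siNT samples also varied: replicates 1 to 3 were above replicates 4 to 6 in 7 of the 34 genes (13.2% of all tested genes) and below them in 4 (16.2%). Against siNT replicates 4 to 6 alone, SSR4 (0.28), DAD1 (0.20) and KRTCAP2 (0.32) were called higher as well, while SEC61B (-0.13) lost its call. Against replicates 1 to 3 alone, SPCS1 (-0.17), SEC11C (-0.30) and OSTC (-0.29) were called lower as well. There SEC62 (-0.13), TUSC3 (-0.14) and SEC61A2 (0.10) lost their calls.

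The 8 genes that were not called had mostly short transcripts, SPCS1 and SRP19 being the exceptions. Their median transcript length was 738 bases (425 to 3786), against 2908 bases (1079 to 9661) for the 10 genes lower by at least 1.5-fold and 3376 bases (564 to 6526) for the 14 lower by less. The tested genes were divided by transcript length into 3 classes of equal size. Of the 13 list genes in the short class (up to 2195 bases), 6 were lower and 1 higher. In the middle class 11 of 14 were lower and 1 higher, and in the long class (from 4218 bases) 7 of 7 were lower. All tested genes also differed by length, with 23% lower and 35.1% higher in the short class, 34.3% lower and 32.1% higher in the middle class, and 35.1% lower and 28.8% higher in the long class. With an offset for transcript length and GC content, 24 list genes were lower and 2 higher (31.9% and 32.7% of the 13962 genes with a length), and the median log2 fold change was -0.25, against 0.02 for all of these genes. SEC61G (-0.16), SEC11C (-0.28) and OSTC (-0.20) were then called lower and SEC62 (-0.03), SRP72 (-0.11) and TUSC3 (-0.05) were not called. Whether length accounts for the calls was not tested.

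Some of the 34 are measured less surely because reads that align to several places were not counted. Of the 40-base windows in the annotated exons, 47.4% recur elsewhere in the genome for SRP9, 39.6% for SPCS2, 25.4% for SEC11A, 19% for OSTC, 14.6% for SRP19 and 12.5% for SRP72. The share was at most 9.13% for the other genes, 4.62% for RPN1 and 4.49% for RPN2. Exons of all annotated transcripts were used, so these are not shares of reads lost.

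Genes of neighbouring steps were read from 7 further lists with 69 genes, of which 36 (52.2%) were lower and 11 (15.9%) higher, with a median log2 fold change of -0.15. These counts stand beside 30.1% lower and 32.1% higher among all tested genes. Accessory translocon genes were lower in 8 of 12 and higher in 1. TMCO1, part of the translocon for multipass proteins, fell by 0.98 on the log2 scale (71.3 ± 5.88 against 140.5 ± 9.97 CPM, adjusted p = 5.71e-10), and BCAP31, an ER membrane chaperone, fell by 0.50. TRAM2, a paralogue of TRAM1, rose by 0.23. In the ER membrane protein complex, an insertase for transmembrane segments, 4 of 10 genes were lower and 3 higher, shares of 40% and 30% that are near those of all tested genes. MMGT1 fell by 0.86 on the log2 scale, EMC9 fell by 0.57, and EMC2 and EMC3 rose by 0.37 and 0.22.

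The pathway that inserts tail-anchored proteins had 4 of 7 genes lower (57.1%) and 2 higher (28.6%), against 30.1% and 32.1% of all tested genes. GET1, a subunit of its receptor, fell by 0.53 on the log2 scale, as did the chaperone SGTA (fell by 0.49), while CAMLG, the partner of GET1 in the receptor, rose by 0.25 and GET4 by 0.57 from 2.64 ± 0.827 CPM. Assembly of the lipid-linked glycan that OST transfers had 14 of 24 genes lower (58.3%) and 2 higher (8.33%). DOLPP1, which recycles the dolichol carrier, fell by 0.72 on the log2 scale (adjusted p = 2.85e-10) and MPDU1 fell by 0.65. ALG6, which adds the first glucose, and SRD5A3, which makes dolichol, rose by 0.46 and 0.20.

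After transfer, the glycan is trimmed. In that list 3 of 9 genes were lower (33.3%, near the 30.1% of all tested genes) and 2 higher (22.2%). GANAB, the catalytic subunit of glucosidase II, fell by 0.60 on the log2 scale. The mannosidases were split: MAN1A1 fell by 0.37, MAN2A1 and MAN1B1 rose by 0.49 and 0.15, and MAN1A2 was not called. Of 5 signal peptide peptidases and ER proteases, 3 were lower and none higher, including ZMPSTE24, a membrane protease that clears clogged channels (fell by 0.41 on the log2 scale), and SPPL3 (fell by 0.34). Of the 2 further OST subunits, OST4 rose and TMEM258 was not called.

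RefSeq promoter windows (GRCh38, 250 bases before to 50 after a start) were at hand for 28 of the 34 genes, in 36 windows, and not for RPN1, SRPRA, SPCS1, STT3B, TRAM1 and TUSC3. They were searched on both strands for elements of the unfolded protein response, the programme that adjusts ER capacity. The ER stress element, CCAAT and CCACG with 9 bases between, was in none of the 36 (0.0769% of all 35116 windows), and the second form, ATTGG and CCACG with 1 base between, was in none either (0.0541%). The core TGACGTGG, which contains CCACG on its other strand, was in 4 of 36 windows, of 4 genes (0.729% of all windows, 0.868% of those of tested genes). CCACG alone was in 23 of 36 windows (38.1% of all windows, 48.2% of those of tested genes).

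The stretches around the TGACGTGG matches are shown because they hold the only such letters among the windows of the 34 genes. They are read 5′ to 3′ on the strand of the gene, with the match in capitals, which is the reverse complement CCACGTCA in all 4.
SSR3, chr3:156554139-156554186, minus strand: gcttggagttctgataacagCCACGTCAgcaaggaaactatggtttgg
SEC62, chr3:169966770-169966806, plus strand: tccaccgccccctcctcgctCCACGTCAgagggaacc
SRP19, chr5:112861155-112861202, plus strand: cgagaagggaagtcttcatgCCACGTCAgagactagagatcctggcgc
SSR4, chrX:153794519-153794566, plus strand: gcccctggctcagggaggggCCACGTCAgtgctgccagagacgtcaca
The match of SSR3 was in 1 of its 3 windows and that of SSR4 in 1 of 2. The matches begin 41 bases before the start for SSR3, 17 for SEC62, 112 for SRP19 and 129 for SSR4. The log2 fold changes of these genes were -0.60, -0.18, -0.02 and 0.12, so the letters went with a call of lower in SSR3 and SEC62 and with no call in SRP19 and SSR4. A match is a description of the sequence and not a binding site.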

How the data were processed

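Single-end reads of 40 bases were, per the labels and the study's methods, aligned by the authors to GRCh37 with TopHat2 2.0.4 and counted on Ensembl genes with HTSeq 0.5.3p9. The deposited values are counts per gene without normalization, in 4 files per sample that differed by no more than sampling noise (chi-square per degree of freedom 0.986 to 1.01) and were summed. Records without a gene (3.95% to 5.97%), ambiguous (2.82% to 2.93%) or with several alignments (26.1% to 30.6%) stayed out of the library sizes. The kit does not mark strand, so overlapping genes on opposite strands cannot be told apart.

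Identifiers were named through GENCODE 44 (82.8% matched). Its GRCh38 coordinates are the ones printed, and its canonical transcripts give the lengths. Genes were filtered with filterByExpr and scaled with TMM factors in edgeR 4.0.16 (R 4.3.3), and its quasi-likelihood test compared the groups, with no covariate. Benjamini-Hochberg adjusted p-values below 0.05 over all tested genes were called. CPM are TMM-normalized, a level of 3 counts corresponds to 0.124 to 0.281 CPM (counting error only), and log2 ratios use a prior count of 2. The members and all lists were chosen with earlier results of these data known. By rule, values by sample are given for the 2 genes of each complex with the smallest p and the 1 with the largest, for both members of each paralogue pair and for genes called higher, and in the further lists for the 2 smallest p in each direction. Values of genes outside that rule, such as SRP72, DDOST, OSTC, KRTCAP2 and TMEM258, were added after they were seen.

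Alternatives were RLE and upper-quartile normalization, DESeq2 1.42.0, no filter, a minimum of 10 counts in all samples, the replicate block, 1 count file, subsets of samples and each sample left out. The offset for transcript length and GC, with and without the block, and the subsets of siNT samples were chosen after seeing the data. Sequences are from RefSeq (GRCh38.p14). Amino acid sequences were not used here. Python 3.11.15 with scipy 1.17.1 served for the permutation tests.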

Additional observations from a re-analysis of the deposited data

Results flagged for a closer look

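In 76 groups of 6 samples (34 genes and 4 paralogue ratios, in siCHKA and in siNT), 1 held a sample whose gap to its nearest neighbour exceeded Dixon's critical share of the group's range. Chance gives about 1 such group in 20. It was SRPRA in siNT, where replicate 5 was at 212 CPM and the other samples lay between 202 and 206 CPM. All siCHKA samples were far below, at 114 to 128 CPM.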

How the results depend on the processing

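Across 25 other fits, no list gene changed direction with a call, and 19 of the 26 called genes kept their call and direction in all of them. SEC61A2, SEC61B, SEC62, TRAM1, SRP72, DDOST and TUSC3 lost the call in at least 1 fit, and SEC61G, SSR4, SPCS1, SEC11C, DAD1, OSTC and KRTCAP2 gained one; the cause was not tested. The number of list genes called lower was 18 with upper-quartile normalization, 25 with DESeq2, 24 to 27 with 1 sample left out, and 10 with a fall of at least 1.5-fold required. The number called higher was 5 with upper-quartile normalization or with siNT replicates 4 to 6 only, 1 without an expression filter, with siCHKA replicates 1, 3 and 5 only or with siNT replicates 1 to 3 only, and 0 at 1.5-fold; it was 1 to 3 with 1 sample left out (1 without siNT replicate 4, 5 or 6). Over all genes, 1643 were lower and 1949 higher by at least 1.5-fold. Upper-quartile normalization gave 3052 lower and 6609 higher, and DESeq2 4433 and 4504, of 14501 tested. With 1 sample left out, 4221 to 4402 genes were lower and 4435 to 4596 higher. The counts were 4067 and 4116 of 15201 with siNT replicates 4 to 6 only, and 4152 and 4233 of 15252 with siNT 1 to 3. With siCHKA replicates 1, 3 and 5 only, they were 4300 and 4408 of 14694. The main fit gave 4371 lower and 4650 higher of 14501. Both counts were larger without an expression filter, where more genes were tested, and smaller with the replicate block.

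The deviations showed no pairing by the numbers in the labels: same-numbered samples correlated at -0.396 to 0.321, below 0 for 3 of 6. This cannot exclude pairing, since differences between sets of replicates within a group also enter the deviations. With the replicate block 24 list genes were lower and 2 higher, as in the main fit. Among all tested genes, fewer were then called in either direction than in the main fit (30.1% lower and 32.1% higher). The STT3A to STT3B difference, 0.11, was not called with the replicate block (0.11, adjusted p = 0.0625, exact sign-flip test), with 1 count file (0.08, p = 0.227), with siCHKA replicates 1, 3 and 5 (0.08, p = 0.167) or with siNT replicates 1 to 3 (0.09) or 4 to 6 (0.13, p = 0.0714 in both). The other 3 ratios kept their call under every alternative run.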
